A study of Homo sapiens with 20 samples.

Results

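The polyamine pathway genes examined here are the enzymes that make and break down putrescine, spermidine and spermine and the proteins that set the stability of the first of these enzymes. They were chosen by Ensembl gene ID from a list of 8 IDs, namely ODC1 (ENSG00000115758), AMD1 (ENSG00000123505), SRM (ENSG00000116649), SMS (ENSG00000102172), SAT1 (ENSG00000130066), AZIN1 (ENSG00000155096), OAZ1 (ENSG00000104904) and OAZ2 (ENSG00000180304). Of these, 6 had a row in all 4 count tables, out of 19029 genes. OAZ1 and OAZ2, the antizymes, had none and were not analysed here. The material was HEK 293T, a transformed human embryonic kidney line that the labels call wild type, grown at 37 °C and given 5 µM i14G1-12 or DMSO, its solvent, for 1 h. The series title describes an inhibitor of eIF1-eIF4G1. In selective translation complex profiling (TCP-seq), formaldehyde fixes ribosomal complexes on mRNA, RNase I trims the RNA they do not cover, and the footprints of small-subunit complexes pulled down through 1 initiation factor are sequenced. There were 8 groups and 20 libraries, with i14G1-12 and DMSO libraries for each factor. The factors eIF1 (HA-tagged) and eIF4G1 had 3 libraries per group, and eIF2a (HA-tagged) and eIF3 had 2 per group. The libraries of eIF1 carry no replicate number that matches the labels and are called a, b and c.

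Polyamines are small positively charged molecules that bind RNA and are required for growth. ODC1 (ornithine decarboxylase) makes putrescine, AMD1 (S-adenosylmethionine decarboxylase) supplies the aminopropyl donor, and SRM and SMS use that donor to make spermidine and spermine. SAT1 acetylates spermidine and spermine for export or breakdown. Antizymes bind ODC1 and send it to the proteasome, and AZIN1, an inactive relative of ODC1, binds antizyme in its place. Several of these mRNAs are known to be controlled by polyamines during translation, AMD1 and AZIN1 through upstream open reading frames in the leader.

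The RefSeq genes lie on GRCh38.p14 at chr2:10439968-10448327 for ODC1, chr6:110814617-110895713 for AMD1, chr1:11054589-11060018 for SRM, chrX:21940709-21994837 for SMS and chrX:23783173-23786210 for SAT1. The counts were made on 1 sequence per gene, with lengths of 2476 nt for ODC1, 3423 nt for AMD1, 1260 nt for SRM, 1703 nt for SMS, 1049 nt for SAT1 and 4196 nt for AZIN1. They give no position inside that sequence, so a read on an upstream reading frame and a read on the main start codon are counted alike. The upstream reading frame of AMD1 is shown because it is the first frame that scanning complexes meet from these starts. It lies within the first 50 bases of the annotated leader, on the plus strand at chr6:110874790-110874819, with the frame from its ATG to its stop codon in capitals.
AMD1 upstream reading frame: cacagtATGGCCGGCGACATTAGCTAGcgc
The frame has 6 codons before its stop, and its ATG begins at base 12 or 13 of the leader, depending on which of 2 neighbouring RefSeq starts is used. Another RefSeq start of AMD1, upstream of these, had no complete frame in its first 50 bases. A complete ATG-to-stop frame was found in the first 50 bases of 10.2% of the 35116 RefSeq windows searched on the transcribed strand. By symbol, 12.5% had such a frame in at least 1 window. Windows for ODC1, SRM, SMS and SAT1 held none. The first 50 bases of AMD1 were 56% G and C at these starts, below the median of 60%, whereas SRM was at 82%, ODC1 at 72% or 80% by start site, SMS at 76% and SAT1 at 64%.
ODC1 and SRM also carry the letters CACGTG, the E-box that MYC family factors bind, in the 300 bases around an annotated start (250 before and 50 after, both strands, as the motif is its own reverse complement). They are shown because these genes had the lowest i14G1-12 log2 fold changes in eIF1 complexes. A link between motif and fold change was not tested. The copies are printed with the motif in capitals, on the minus strand, from chr2:10448024-10448053, chr2:10447990-10448019 and chr1:11060200-11060229.
ODC1 upstream copy: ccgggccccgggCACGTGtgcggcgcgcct
ODC1 downstream copy: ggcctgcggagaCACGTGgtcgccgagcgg
SRM copy: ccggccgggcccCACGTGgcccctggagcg
The motif occurs in 7.26% of the windows and, by symbol, in at least 1 window of 8.77% of symbols. The windows of AMD1, SMS and SAT1 did not hold it, and AZIN1 had no window to search. Both ODC1 copies lie in the window of the same start, and the window at another RefSeq start of ODC1 held none. A match is a description of the sequence only, and no binding was measured.

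Total counts per library ran from 10033 to 1161512. The shallowest were eIF2a DMSO 2, with 10033 counts, and eIF3 DMSO 2, with 59179. Replicates in every group differed by more than counting noise (chi-square over degrees of freedom 1.34 to 10.2), and the labels do not say whether they were separate cultures, so p-values measure only the spread between these libraries. The 6 genes together took 0.0672% of counts in eIF4G1 i14G1-12 1 (exact binomial 95% interval 0.0586% to 0.0768%, counting error only) and 0.137% in eIF3 i14G1-12 2 (0.123% to 0.153%), with the other libraries between these. They rested on 8 counts in eIF2a DMSO 2 and on 78 to 1064 in the others. There was no input library among those used here. A value is therefore a share of the RNA in a precipitate, in which more mRNA and more complexes per mRNA cannot be told apart. The tables hold no gene names and the IDs could not be matched to symbols, so markers of the cell line and further polyamine genes were not checked.

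Per length, AZIN1 and SRM were the most abundant of the 6 genes and SAT1 the least. On the TPM scale, which divides counts by sequence length and then by the library's sum, AZIN1 had a median level of 136 over the 20 libraries (77.2 to 322) and SRM of 125 (22.5 to 386). SMS had a median TPM level of 89.1 (27.1 to 226), AMD1 of 86.3 (35.6 to 307), ODC1 of 75.1 (18.7 to 130) and SAT1 of 19.0 (0 to 55.6). The ranges of neighbours in this order overlapped, but SAT1 was the lowest in 18 of 20 libraries. Footprints gather near start codons, so dividing by the whole sequence is a rough scaling. AZIN1 was first in 11 libraries per length and in 19 without the length. By mean TPM level, SAT1 stood at percentile 77.1 of all genes and the others between 92.3 and 95.6.

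**Figure D1:**
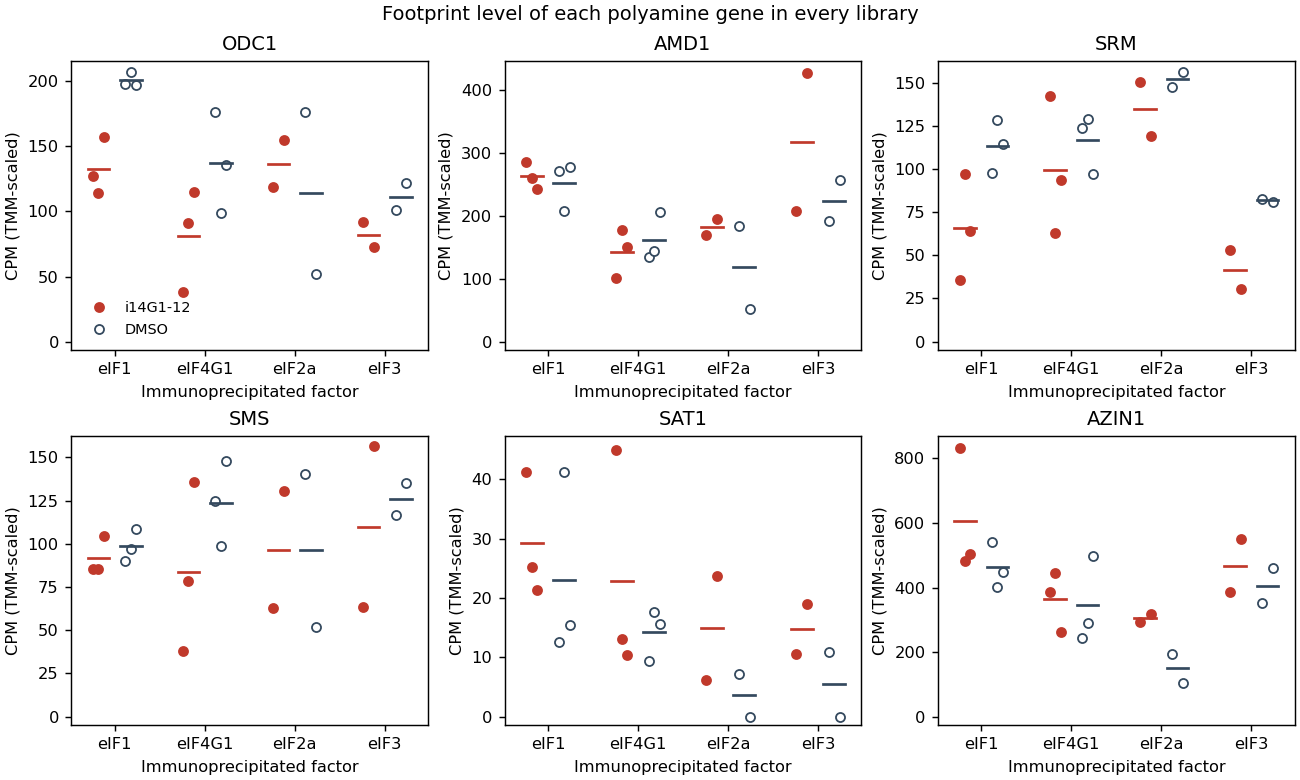
Level of each gene in every library, in CPM, the count scaled to a common library size with TMM factors from all 20 libraries (y axis), by immunoprecipitated factor (x axis), with i14G1-12 libraries as filled points left of DMSO libraries as open points and a line at each group mean. In eIF1 the 3 i14G1-12 libraries of ODC1 lie between 115 and 157 CPM, below all 3 DMSO libraries.

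ODC1, the first and rate-limiting enzyme, had lower values after i14G1-12 in eIF1 complexes, a difference that did not pass the test over all genes. It was at 127, 115 and 157 CPM in the 3 i14G1-12 libraries, and at 198, 207 and 197 CPM in the 3 DMSO libraries. The groups did not overlap, and the DMSO libraries lay close together. The log2 fold change was -0.62 (SE 0.24, 95% interval -1.11 to -0.14), with an unadjusted p of 0.0141 and an adjusted p of 0.245 by edgeR's quasi-likelihood test. Across all 8338 genes tested, 12.4% had an unadjusted p under 0.05. When each of the 6 libraries was left out in turn, that of ODC1 was under 0.05 in 5 fits, and without i14G1-12 b it was not (log2 fold change -0.53).

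In eIF4G1 complexes ODC1 was at 38.1, 91.3 and 115 CPM in i14G1-12 and at 177, 98.7 and 136 CPM in DMSO. The groups overlapped because i14G1-12 3 lay above DMSO 2, although the means, 81.4 ± 39.2 and 137 ± 39.1 CPM (SD, n = 3 each), differed by more than either SD. The log2 fold change was -0.70 (SE 0.37, edgeR adjusted p = 0.648). In eIF3 complexes ODC1 was at 91.7 and 72.5 CPM in i14G1-12 and at 101 and 122 CPM in DMSO, again without overlap (log2 fold change -0.45, SE 0.63, edgeR adjusted p = 0.9998). In eIF2a complexes it was at 119 and 155 CPM in i14G1-12 and at 176 and 52.0 CPM in DMSO. The lower DMSO value there is 1 read in the shallowest library. The mean CPM was higher in i14G1-12, at 137, against 114 in DMSO, while the log2 fold change fitted with each library's depth was -0.23 (SE 0.44, edgeR adjusted p = 0.9999). Without DMSO 1, which leaves that 1 read as the DMSO group, it was 1.13, so its direction rests on DMSO 1. Without DMSO 2 it was -0.33.

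AMD1, which supplies the aminopropyl donor and carries the upstream frame shown above, had no detectable change in any precipitate. In eIF1 it was at 286, 260 and 243 CPM in i14G1-12 and at 271, 207 and 278 CPM in DMSO. The groups overlapped, and the log2 fold change of 0.04 had a 95% interval from -0.41 to 0.49 (SE 0.22, edgeR adjusted p = 0.967). In eIF4G1 it was at 101, 177 and 151 CPM in i14G1-12 and at 135, 144 and 206 CPM in DMSO (log2 fold change -0.14, 95% interval -0.82 to 0.54, edgeR adjusted p = 0.948). With total counts only, the eIF1 value was -0.10, a move of -0.14, and the median of all genes moved by -0.14 as well. The intervals in eIF1 and eIF4G1 leave out a change of 1 unit on the log2 scale in either direction. AMD1 had log2 fold changes of 0.11 (-0.71 to 0.93) in eIF2a and 0.48 (-0.84 to 1.80) in eIF3, where i14G1-12 2 reached 427 CPM and the other i14G1-12 library was at 208 CPM, against 191 and 257 CPM in DMSO. The eIF2a value rests on few reads, since it was 1.53 without DMSO 1 (edgeR adjusted p = 0.594) and 0.0033 without DMSO 2.

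SRM, spermidine synthase, had lower values in eIF1 and eIF3, and these too did not pass. In eIF1 it was at 35.4, 97.1 and 64.3 CPM in i14G1-12, against 97.9, 128 and 114 CPM in DMSO. The groups were separated by less than 1 CPM, between i14G1-12 b and DMSO a. The log2 fold change was -0.77 (SE 0.31, 95% interval -1.41 to -0.13, unadjusted p = 0.0211 and adjusted p = 0.289 by edgeR). With each of the 6 libraries left out in turn, the unadjusted p was under 0.05 in 3 fits, and the log2 fold change lay between -1.19 (without i14G1-12 b) and -0.48 (without i14G1-12 a). In eIF3 SRM was at 52.9 and 30.5 CPM in i14G1-12 and at 82.4 and 81.1 CPM in DMSO, and the log2 fold change was -0.998 (SE 0.66, edgeR adjusted p = 0.9998), which rested on 15 and 8 counts in i14G1-12 and on 53 and 6 counts in DMSO. In eIF4G1 (142, 62.6 and 93.8 CPM in i14G1-12, against 124, 129 and 97.2 CPM in DMSO) and in eIF2a (150 and 119 CPM, against 148 and 156 CPM) the groups overlapped, and the log2 fold changes were -0.25 (SE 0.35) and -0.18 (SE 0.45). The value of 156 CPM is 3 reads in eIF2a DMSO 2.

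SMS, spermine synthase, differed little between treatments in eIF1. It was at 85.6, 85.4 and 105 CPM in i14G1-12 and at 89.9, 97.3 and 109 CPM in DMSO, a log2 fold change of -0.12 (95% interval -0.67 to 0.43). In eIF4G1, SMS was at 38.1, 78.2 and 136 CPM in i14G1-12 and at 125, 98.7 and 148 CPM in DMSO, and its log2 fold change was -0.46 (SE 0.38, adjusted p = 0.817 by edgeR). Its groups overlapped in all 4 precipitates, with log2 fold changes of -0.37 in eIF2a and -0.22 in eIF3, which turned to 0.68 without eIF2a DMSO 1 and to 0.31 without eIF3 i14G1-12 1.

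SAT1, the acetyltransferase, was covered too thinly for the test except in eIF1. Its 6 eIF1 libraries held 14, 13 and 9 counts in i14G1-12 and 11, 36 and 11 counts in DMSO. The highest count was in a DMSO library, and the log2 fold change of 0.27 had a 95% interval from -0.81 to 1.35 (edgeR adjusted p = 0.892). In eIF4G1 the counts were 13, 5 and 12 in i14G1-12 and 10, 7 and 4 in DMSO. In eIF2a they were 1 and 6 in i14G1-12 and 2 and 0 in DMSO, and in eIF3 they were 3 and 5 in i14G1-12 and 7 and 0 in DMSO. The libraries at 0 were the shallowest of their factors, and 0 counts allow up to 299 CPM of total counts in eIF2a DMSO 2 and 50.7 in eIF3 DMSO 2 (3 counts, counting error only).

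AZIN1, the antizyme inhibitor, had higher values after i14G1-12 in eIF2a complexes, without passing the test. It was at 294 and 317 CPM in i14G1-12 and at 194 and 104 CPM in DMSO, where the lower value rests on 2 reads. The groups did not overlap, and the log2 fold change was 0.72 (SE 0.38, 95% interval -0.03 to 1.47, edgeR adjusted p = 0.9999). The eIF2a fit pooled the spread over genes (9438 degrees of freedom), so its SEs and intervals do not rest on each gene's own spread. For AZIN1 the SE was 0.49 in 1 fit to 20 libraries, 0.58 with the replicate number as a block and 0.75 by DESeq2. The log2 fold change was 0.66 without the shallow DMSO 2. It was 1.28 without DMSO 1, which leaves those 2 reads alone as the DMSO group. In eIF1 AZIN1 was at 832, 482 and 502 CPM in i14G1-12 and at 542, 401 and 448 CPM in DMSO (log2 fold change 0.35, SE 0.22, edgeR adjusted p = 0.559). The groups overlapped, and i14G1-12 a stood above the others by CPM, in the library with the lowest TMM factor of the 20, 0.601. Per length and with no TMM scaling the same library was at 159 TPM, against 135 and 139 TPM in the other i14G1-12 libraries. In eIF4G1 AZIN1 was at 385, 443 and 263 CPM in i14G1-12 and at 245, 291 and 498 CPM in DMSO, and in eIF3 at 385 and 549 CPM in i14G1-12 and at 351 and 459 CPM in DMSO. The groups overlapped in both, with log2 fold changes of 0.09 in eIF4G1 (SE 0.32), which was -0.079 with total counts only (a move of -0.17, where the median of all genes moved by -0.15), and 0.17 in eIF3 (SE 0.61).

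Over the 4 precipitates, 0 of the polyamine genes tested changed after i14G1-12 by edgeR at an adjusted p of 0.05, with 6 tested in eIF1 and 5 in each of the others. DESeq2 also called 0, but it gave an adjusted p to 5 of the 6 genes in eIF1 (not SAT1) and to only 1 of the 5 in eIF4G1 (AZIN1), so its 0 in eIF4G1 covers AZIN1 alone. Few calls were made over all genes, at 0.456% for eIF1 and 0.347% for eIF4G1, with 0.0159% for eIF3 and 0.00% for eIF2a. At an unadjusted p under 0.05 there were 2 of 6 polyamine genes in eIF1, ODC1 and SRM, beside 12.4% of all genes. There were 0 of 5 in eIF4G1 (8.65% of all genes), eIF2a (1.84%) and eIF3 (1.75%), where shares this low leave 0 of 5 uninformative. The median log2 fold change over the polyamine genes tested was -0.04 for eIF1 (0.0048 over all genes tested), -0.25 for eIF4G1 (-0.0053), -0.18 for eIF2a (0.06) and -0.22 for eIF3 (0.02). Groups lay apart with lower values in i14G1-12 for 2 of 6 genes in eIF1 (9.20% of all genes) and 2 of 5 in eIF3 (12.0%), in both cases ODC1 and SRM, and with higher values for 1 of 5 in eIF2a (21.8%), AZIN1. The counts were 0 for higher values in eIF1 (8.85% of all genes), eIF3 (13.8%) and eIF4G1 (7.16%), and for lower values in eIF4G1 (6.98%) and eIF2a (7.46%).

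The 4 comparisons use separate libraries, so their directions can be set side by side. Of the 5 genes tested in all of them, ODC1, SRM and SMS had log2 fold changes below 0 in all 4, as did 12.0% of the 4414 genes tested in all, and AZIN1 was above 0 in all 4, as were 12.1%. These signs are not fixed in every setting, since ODC1 in eIF2a was at 0.012 by DESeq2 and AZIN1 in eIF4G1 was below 0 with total counts only. That scaling moved AZIN1 by -0.17 and the median of all genes by -0.15. AMD1 differed in sign between precipitates. When the 4 effects were averaged in 1 fit to all 20 libraries, ODC1 had an averaged value of -0.46 (log2, SE 0.21, 95% interval -0.88 to -0.03, unadjusted p = 0.0373 and adjusted p = 0.437 by edgeR). Without eIF2a DMSO 1 it was -0.055, so its size depends on that library. That fit leaves eIF2a DMSO 2, the shallowest library with 1 read of ODC1, as the eIF2a DMSO group. Without eIF2a DMSO 2 instead, the averaged value was -0.51. With each of the 20 libraries left out in turn, the unadjusted p was under 0.05 in 12 fits for ODC1 and in 16 for SRM. SRM had one of -0.53 (SE 0.23, 95% interval -0.99 to -0.08, unadjusted p = 0.0210 and adjusted p = 0.367 by edgeR), and lay between -0.65 and -0.45 with a library left out. By log2 fold change ODC1 stood at percentile 8.22 of all genes and SRM at percentile 5.59, and neither passed. The averaged log2 fold change was 0.38 for AZIN1 (SE 0.20, edgeR adjusted p = 0.538), 0.17 for AMD1 (SE 0.20), -0.26 for SMS (SE 0.23) and 0.73 for SAT1 (SE 0.50), and 0.541% of the 9426 genes tested were called. The SAT1 average rests on 0 to 7 counts per library in eIF2a and eIF3, and lay between 0.39 and 1.98 with a library left out.

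**Figure D2:**
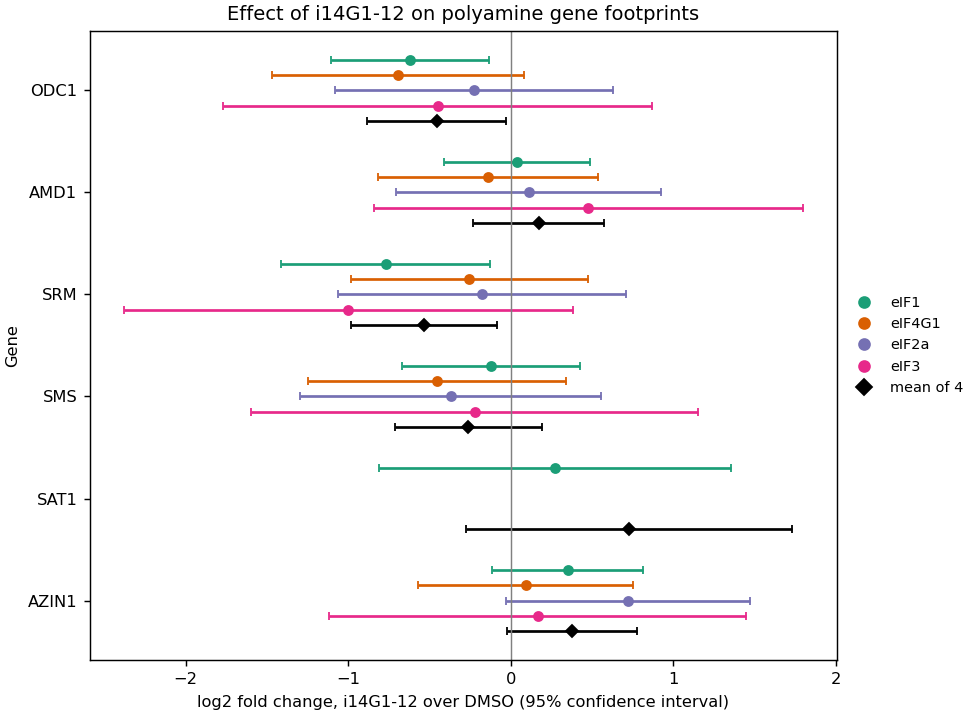
Log2 fold change of i14G1-12 over DMSO for each gene (x axis; rows are genes) in each of the 4 immunoprecipitations (circles, own fits) and averaged over them (diamonds, 1 fit to 20 libraries), with 95% confidence intervals. ODC1 and SRM have intervals below 0 in eIF1 and in the average. The ODC1 average is at -0.055 without eIF2a DMSO 1 and at -0.51 without eIF2a DMSO 2. SAT1 was tested only in eIF1 and in the average.

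Whether the effect of i14G1-12 differed between factors was tested in the same fit. Of the 6 genes, 0 passed the test of a difference between the 4 precipitates (unadjusted p from 0.556 for SRM to 0.933 for SAT1, 0 under 0.05, edgeR adjusted p rounding to 1.000 for each), and DESeq2 called 0. Of all genes, 0.0212% were called. For the factors named in the series title, the effect in eIF1 minus that in eIF4G1 was 0.11 for ODC1 (95% interval -0.86 to 1.08), 0.21 for AMD1 (-0.74 to 1.15), -0.49 for SRM (-1.50 to 0.52), 0.36 for SMS (-0.68 to 1.41), -0.29 for SAT1 (-2.20 to 1.63) and 0.29 for AZIN1 (-0.64 to 1.23) on the log2 scale, and 0 of the 6 genes were called by edgeR or DESeq2, beside 0.0318% of all genes, all of them lower in eIF1. These intervals reach about 1 unit on either side of the estimate, and nearly 2 for SAT1, so smaller differences would not have been detectable at this depth.

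ODC1 and AZIN1 compete for antizyme, and their counts can be set as a ratio inside each library, where depth and scaling cancel. This ratio is given as a description with no test, and it repeats the values above. In eIF1 the counts of ODC1 over those of AZIN1 were 0.152, 0.238 and 0.313 in i14G1-12 and 0.366, 0.517 and 0.440 in DMSO. All 3 i14G1-12 libraries lay below all 3 DMSO libraries, as did the ratio to AZIN1 of 14.1% of genes. In eIF3 the ratio was 0.239 and 0.132 in i14G1-12 and 0.288 and 0.265 in DMSO (14.3% of genes lower without overlap), and in eIF2a 0.404 and 0.488 in i14G1-12 and 0.907 in DMSO 1 (46.7% of genes), with 1 read of ODC1 for 2 of AZIN1 in DMSO 2. In eIF4G1 it was 0.0991, 0.206 and 0.436 in i14G1-12 and 0.722, 0.339 and 0.273 in DMSO, and there the groups overlapped (3.68% of genes lower without overlap). In eIF1 and eIF4G1 the ratio of AMD1 to AZIN1 moved less. It was 0.456 ± 0.101 in i14G1-12 and 0.546 ± 0.0646 in DMSO for eIF1, and 0.412 ± 0.157 in i14G1-12 and 0.487 ± 0.0694 in DMSO for eIF4G1 (SD, n = 3 each). In eIF3 the AMD1 ratio was 0.541 and 0.778 in i14G1-12 and 0.544 and 0.559 in DMSO. In eIF2a it was 0.574 and 0.6125 in i14G1-12 and 0.944 in DMSO 1, with 1 read of AMD1 for 2 of AZIN1 in DMSO 2.

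**Figure D3:**
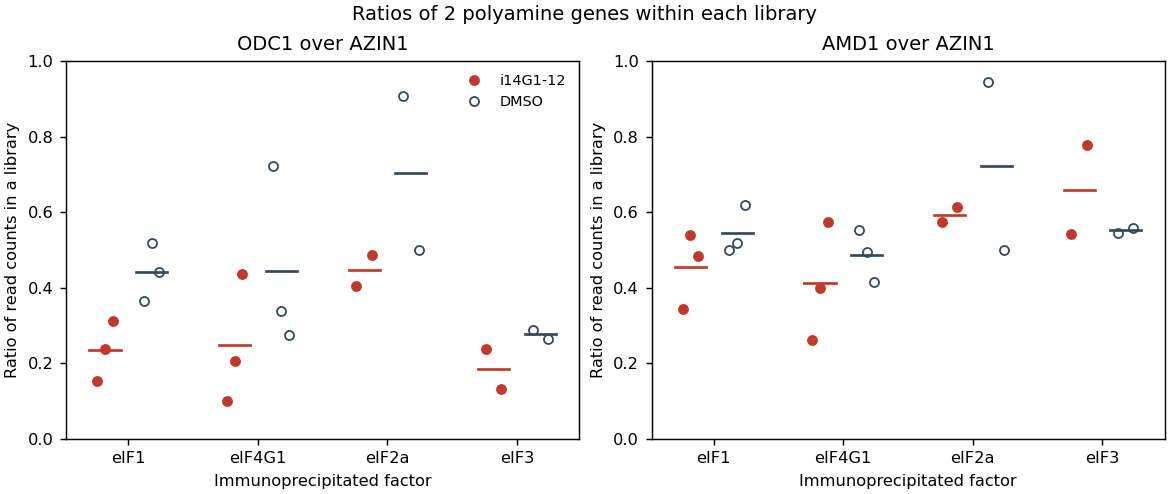
Read counts of ODC1 (left) and AMD1 (right) divided by those of AZIN1 in the same library (y axis) by immunoprecipitated factor (x axis), with i14G1-12 libraries as filled points left of DMSO libraries as open points and a line at each group mean. In eIF1 the ODC1 ratio is at most 0.313 in i14G1-12 and at least 0.366 in DMSO, whereas the AMD1 ratio overlaps.

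The precipitates were then compared with each other over both treatments, which asks which factor's complexes held more of each mRNA. Factor, antibody, HA tag, tagged cells and library batch cannot be told apart here. AZIN1 was higher in eIF1 complexes than in the mean of the other 3, by 0.68 on the log2 scale (SE 0.20, 95% interval 0.28 to 1.08, edgeR adjusted p = 0.0122). It was the only one of the 6 genes called, where 15.0% of all genes were called, 11.5% higher and 3.53% lower. A count of 1 of 6 is near that share, so it does not set the polyamine genes apart. DESeq2 also called AZIN1 alone. Its level was 534 ± 154 CPM in eIF1 (SD, n = 6, 401 to 832), 354 ± 104 CPM in eIF4G1 (n = 6, 245 to 498), 227 ± 98.0 CPM in eIF2a (n = 4, 104 to 317) and 436 ± 88.0 CPM in eIF3 (n = 4, 351 to 549). The ranges of eIF1 and eIF2a did not overlap, and those of eIF1, eIF4G1 and eIF3 did. The share of all genes with ranges apart between precipitates was not counted. Per length and with no TMM scaling, the mean AZIN1 level was highest in eIF3, at 226 TPM. It was 142 TPM in eIF1, 128 TPM in eIF4G1 and 99.4 TPM in eIF2a. The call depended on scaling. With total counts only, which lowered the median of all genes by 0.40 on the log2 scale, the difference was 0.24 (edgeR adjusted p = 0.329). It also lost the threshold without eIF1 i14G1-12 a (0.53, edgeR adjusted p = 0.112) or eIF1 DMSO a (0.60).

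The remaining differences between precipitates did not pass the test by edgeR. Among the 6 genes 0 were called in eIF4G1 (0.690% of all genes, 0.371% higher and 0.318% lower), eIF2a (0.244%, 0.159% higher and 0.0849% lower) and eIF3 (3.67%, 2.82% higher and 0.849% lower). AZIN1 had a difference of -0.89 on the log2 scale in eIF2a (SE 0.28, edgeR adjusted p = 0.151), and DESeq2 called this difference (adjusted p = 0.00897), with an adjusted p for 3 of the 6 genes there. AMD1 had its lowest difference in eIF4G1, at -0.57 (SE 0.21, unadjusted p = 0.0098 and adjusted p = 0.234 by edgeR), and values of 0.44 in eIF1 (edgeR adjusted p = 0.145) and 0.49 in eIF3 (edgeR adjusted p = 0.261). Its level was 101 to 206 CPM in the 6 eIF4G1 libraries and 207 to 286 CPM in the 6 eIF1 libraries, ranges that nearly met. Per length and with no TMM scaling the ranges overlapped, at 35.6 to 98.8 TPM in eIF4G1 and 67.0 to 106 TPM in eIF1. SRM ran the other way, with its highest difference in eIF2a, at 0.78 (SE 0.28, edgeR adjusted p = 0.243), and its lowest in eIF3, at -0.89 (SE 0.30, edgeR adjusted p = 0.0780). Its level was 119 to 156 CPM in the 4 eIF2a libraries and 30.5 to 82.4 CPM in the 4 eIF3 libraries. The 156 CPM is 3 reads in eIF2a DMSO 2, and eIF3 DMSO 2 held 6 reads. The share of all genes with ranges apart in this way was not counted. Without eIF3 i14G1-12 1 the SRM difference in eIF3 passed (-1.13, edgeR adjusted p = 0.0445). ODC1 had differences of 0.51 in eIF1 (SE 0.21, edgeR adjusted p = 0.0980) and -0.53 in eIF3 (SE 0.28, edgeR adjusted p = 0.293). With TMM scaling SMS lay between -0.23 and 0.17 in every precipitate, and SAT1 was at 1.02 in eIF1 (95% interval 0.13 to 1.90, edgeR adjusted p = 0.114). The SAT1 value sets eIF1 against eIF2a and eIF3 libraries with at most 7 counts each. The eIF1 values here also depend on the settings. With total counts only, the median of all genes moved by -0.40 in that contrast. The lowest eIF1 values over the alternative settings were 0.10 for ODC1, 0.013 for AMD1, 0.64 for SAT1 and -0.63 for SMS. These 4 contrasts share libraries and are not separate results.

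**Figure D4:**
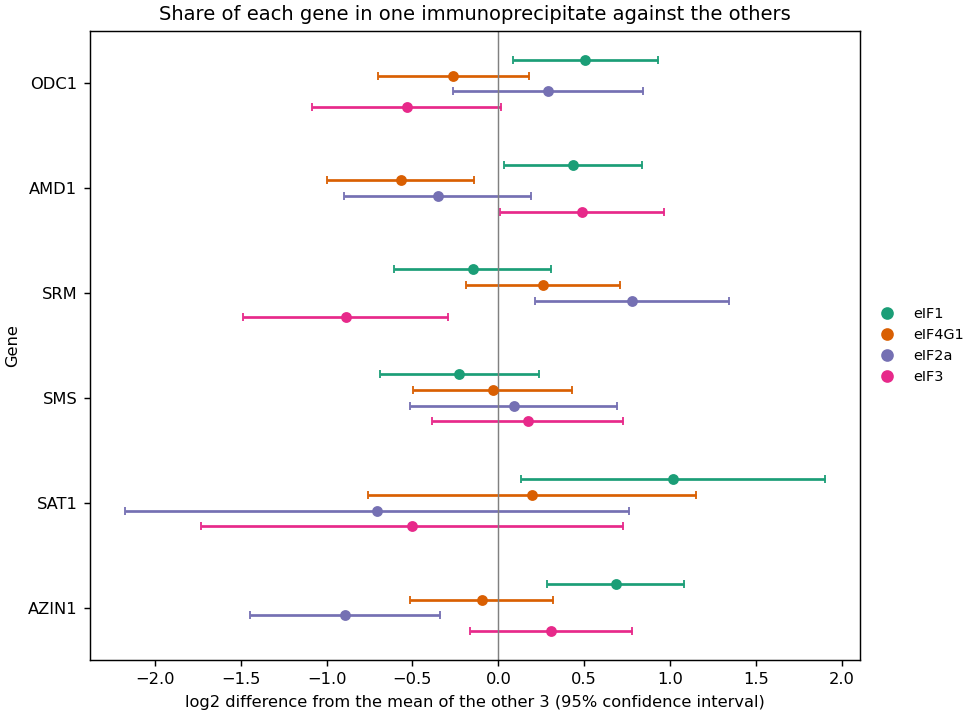
Log2 difference of each gene in 1 immunoprecipitation from the mean of the other 3, over both treatments (x axis; rows are genes), with 95% confidence intervals from 1 fit to 20 libraries. With TMM scaling AZIN1 is highest in eIF1, at 0.68, and lowest in eIF2a, at -0.89, while SMS stays between -0.23 and 0.17. Over the alternative settings the eIF1 value was as low as 0.24 for AZIN1 and -0.63 for SMS.

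Across the 20 libraries AMD1 and AZIN1 varied together more than any other pair of the 6 genes, with a Pearson's r of 0.81 between their log2 CPM, and 0.70 after each group's mean was removed. AMD1 and SMS had an r of 0.54 across libraries and of 0.78 within groups, and ODC1 and SMS of 0.59 and 0.75. SRM ran against AZIN1 and AMD1, with r of -0.68 and -0.65 across libraries and of -0.60 and -0.50 within groups. These are descriptions over libraries that share depth, scaling and precipitation, and no p is given. In eIF2a DMSO 2 the values are 1 read each of AMD1, ODC1 and SMS, 2 of AZIN1 and 3 of SRM. AMD1 and AZIN1 had their lowest CPM there and SRM its highest, so this library weighs on these r. The r without it was not computed. Over the 9426 genes tested, the gene whose log2 CPM was most like that of AZIN1 was ENSG00000132275 (r = 0.91), and the one most like ODC1 was ENSG00000115233 (r = 0.90), each the highest over all other genes from only 20 libraries.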

How the data were processed

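RNA from 4 immunoprecipitations was measured in 20 libraries. Per the file headers, the authors' 4 tables hold whole-number read counts per gene in the featureCounts layout, with the length of 1 sequence per gene. The submitters' processing notes name featureCounts, Bowtie, HISAT2, Trimmomatic, cutadapt and hg38 without versions; the treatment of multi-mapping reads was not stated. Columns were mapped to samples by name, and eIF1 columns to groups only.

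Counts were tested with edgeR 4.0.16 in R 4.3.3 (filterByExpr, minimum count 10, TMM, quasi-likelihood test, Benjamini-Hochberg over all genes tested, threshold 0.05). Each treatment comparison used its own libraries, and all others 1 fit to 20 libraries. SEs were derived from F and the log2 fold change, and 95% intervals from the fit's degrees of freedom. DESeq2 1.42.0 was an alternative. The code was checked on simulated data. Pearson's r used a prior count of 2. Sequences are from RefSeq (GRCh38.p14), which held windows for 7 of the 8 symbols. Of 59792 reference genes, 0 carried an Ensembl ID, so other symbols were not matched. All members were to be named in every comparison. The members and lists were chosen with earlier results of these data known.

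Same-numbered libraries were not treated as paired. Their deviations from group means correlated at -0.14 to 0.0054 in eIF4G1, -0.0045 in eIF2a and 0.41 in eIF3, the last 2 over only 2 numbers.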

Additional observations from a re-analysis of the deposited data

How the results depend on the processing

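In the treatment comparisons and their differences, 0 of the polyamine genes that had an adjusted p were called under the alternatives run (scaling, count filter, 1 fit, replicate block, DESeq2, each library left out). DESeq2 gave none to SAT1 in eIF1, to 4 of 5 genes in eIF4G1 and to SAT1, SRM and SMS in the average, and the minimum of 30 counts removed SAT1 throughout, ODC1 and SRM in eIF3 and SMS in eIF2a. With the replicate number as a block, which could be fitted for eIF4G1, eIF2a and eIF3, 0 were called and the count over all genes in eIF3 became 38, where 1 was called without it. Between precipitates, the count in eIF1 was 0 with total counts only and 0 to 1 when each library was left out, that in eIF2a was 1 by DESeq2, and that in eIF3 was 0 to 1 when each library was left out. AZIN1 ranked first in 19 libraries by CPM. With total counts only, AMD1 in eIF1 turned to -0.10, AZIN1 in eIF4G1 to -0.079 and SMS in eIF4G1 against the others to 0.035 (log2), where they moved by -0.14, -0.17 and 0.068 and the median of all genes by -0.14, -0.15 and 0.064, so these turns are mostly the shared scaling. DESeq2 put ODC1 in eIF2a at 0.012, and the cause of that was not tested. Without eIF2a DMSO 1, ODC1 averaged -0.055, AMD1 in eIF2a was at 1.53 and AZIN1 in eIF2a at 1.28. Without eIF2a DMSO 2 instead, these values were -0.51, 0.0033 and 0.66.

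Leaving out each library turned the sign of uncalled log2 fold changes. For the treatment they ranged from -0.066 to 0.12 (AMD1) and -0.050 to 1.03 (SAT1) in eIF1, from -0.29 to 0.044 (AMD1) and -0.13 to 0.43 (AZIN1) in eIF4G1, from -0.38 to 1.13 (ODC1) and -1.01 to 0.68 (SMS) in eIF2a, from -0.10 to 0.93 (AMD1), -0.084 to 0.42 (AZIN1) and -0.98 to 0.31 (SMS) in eIF3, and from -0.45 to 0.069 for SMS averaged. For eIF1 minus eIF4G1 they ranged from -0.19 to 0.47 (ODC1), -0.056 to 0.50 (AZIN1) and -0.74 to 0.021 (SAT1). Against the other precipitates they ranged from -0.32 to 0.0072 (SMS) in eIF1, from -0.45 to 0.016 (ODC1), -0.27 to 0.045 (AZIN1) and -0.33 to 0.19 (SMS) in eIF4G1, from -0.52 to 0.42 (ODC1), -3.05 to 0.14 (SAT1) and -0.57 to 0.28 (SMS) in eIF2a, and from -3.02 to 0.26 (SAT1) and -0.24 to 0.41 (SMS) in eIF3.

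Counts over all genes moved more. In eIF1, 38 were called, against 129 with no count filter, 70 at a minimum of 30 counts, 4 in 1 fit to 20 libraries, 174 by DESeq2 and 2 to 64 with each library left out. In eIF4G1, 25 were called, against 68 with no filter, 40 at a minimum of 30, 91 by DESeq2 and 4 to 46 with each library left out. In eIF3, 1 was called and other settings than the block gave 0 to 5, and in eIF2a leaving out a library gave 0 to 13. The averaged effect gave 51, against 29 with total counts, 81 with no filter, 143 by DESeq2 and 14 to 104 with each library left out, and its difference between precipitates gave 2, against 5 with no filter. Against the other precipitates, eIF1 had 1416 (804 to 1692 with each library left out), eIF4G1 65 (105 with no filter, 25 to 176), eIF2a 23 (67 with total counts, 42 with no filter, 38 at a minimum of 30, 152 by DESeq2, 3 to 46) and eIF3 346 (528 with DESeq2 size factors, 577 with total counts, 26 without the 2 shallowest libraries, 20 to 927). The shallow eIF2a and eIF3 DMSO libraries limit what could be detected there.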
